A study of Rattus norvegicus with 12 samples.

Results

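The comparison described here is rapamycin against vehicle at day 7 after Achilles tendon injury, read in the microRNAs (miRs) carried by serum extracellular vesicles (EVs). It holds 6 of the 12 libraries of the series, 3 per treatment, chosen by their treatment and day labels, and it was examined by seed family and by genomic cluster. The animals were wild-type female Wistar rats, 12 weeks of age, whose left Achilles tendon had been injured with a needle. The treated animals had received rapamycin at 2 mg per kg by intraperitoneal injection, 5 times by day 7, and the control animals the same volume of vehicle. Both groups were injured, so no uninjured serum enters the comparison. Per the labels the sampled tissue is tendon, but the design text and the methods give serum EVs, isolated by size exclusion, and the study states that size exclusion by itself may not isolate EVs fully and that the fraction was not fully characterised.

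The study does not list 2 of the 6 libraries, rapamycin replicate 2 and vehicle replicate 1, and gives no reason. The other 4, rapamycin replicates 1 and 3 and vehicle replicates 2 and 3, are called the listed libraries, and each result is given for these 4 and then for all 6. The listed libraries held 22355 to 51391 miR counts, the unlisted rapamycin library 51431 and the unlisted vehicle library 95834. Per count of the synthetic calibrators added to each RNA sample, the listed libraries held 1.02 to 1.58 miR counts, the unlisted rapamycin library 5.53 and the unlisted vehicle library 12.8. A level of 3 counts, the lowest read here as detected, stood at 31.3 to 134 CPM, and such limits cover counting error only. CPM (counts per 1000000) is the count of a miR scaled to the summed miR counts of its library. The libraries of a group come from separate animals per the methods. The p-values of the fits rest on a spread between animals that also draws on the day 21 libraries. That spread is shared almost wholly across features, so they do not measure how a single miR varied between the day 7 animals.

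MiRs are short RNAs that guide the silencing complex to messenger RNAs. Pairing is led by the seed, bases 2 to 8 of the mature miR, so miRs with the same seed form a family with overlapping targets. Neighbouring miR genes are often transcribed together, which makes a genomic cluster a second way of grouping them. EVs in serum derive largely from blood cells, platelets, endothelium and liver, and several miRs mark those sources. Rapamycin inhibits the mTORC1 kinase complex, which couples nutrients and growth factors to protein synthesis and cell growth, and it restrains the proliferation of lymphocytes.

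Of the 426 miRs in the table, 385 matched a mature rat sequence in RefSeq (GRCr8), and these held 92.2% of the miR counts. They formed 42 families of 2 or more miRs, with 113 members, and 45 clusters of 2 or more miRs, with 187 members. The let-7 family is shown first because it holds a member that was called lower. The sequences run 5′ to 3′ and the seed is in capitals.
let-7a-5p: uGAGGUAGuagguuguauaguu
let-7c-5p: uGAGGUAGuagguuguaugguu
let-7f-5p: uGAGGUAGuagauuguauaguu
let-7i-5p: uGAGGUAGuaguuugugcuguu
miR-98-5p: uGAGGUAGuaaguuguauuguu
All 5 carry the same seed, and let-7a-5p differs from let-7c-5p and from let-7f-5p at 1 base each. The authors' assignment to miRBase allowed 1 mismatch, so counts of these members may have been split between them and each is uncertain on its own.

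The miRs whose levels the comparison turns on are shown next, with the arms of the haematopoietic miR-142 hairpin. The pair named miR-133 shares a seed, and each of the others is the only matched miR with its seed.
miR-128-3p: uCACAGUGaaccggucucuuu
miR-342-3p: uCUCACACagaaaucgcacccgu
miR-142-3p: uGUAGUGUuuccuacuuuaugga
miR-142-5p: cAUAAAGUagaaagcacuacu
miR-122-5p: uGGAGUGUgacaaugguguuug
miR-122-3p: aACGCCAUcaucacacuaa
miR-378a-3p: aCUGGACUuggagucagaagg
miR-133a-3p: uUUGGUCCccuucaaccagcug
miR-133b-3p: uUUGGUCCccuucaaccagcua
The miR-30 family had the highest summed fold change among the families with 2 or more measurable members in the listed libraries. Its matched members share a seed and differ in the 3′ part.
miR-30a-5p: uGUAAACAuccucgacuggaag
miR-30c-5p: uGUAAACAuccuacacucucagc
miR-30e-5p: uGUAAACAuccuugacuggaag
The seed of miR-27b-3p overlaps that of miR-128-3p with a shift of a single base. The letters CACAGU stand at bases 2 to 7 of miR-128-3p and at bases 3 to 8 of miR-27b-3p, and the pair belongs to different families by the rule used here.
miR-27b-3p: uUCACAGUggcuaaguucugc

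In the listed libraries the lymphocyte-enriched miR-150-5p, let-7f-5p and miR-128-3p were lower with rapamycin, and the liver-enriched miR-122-5p, with miR-378a-3p and miR-99a-5p, was called higher in the fit of seed features. These 3 entered that fit as single miRs, and its abundance cutoff was lower, at 11.1 log2 CPM against 12.6 in the fit of single miRs. There miR-122-5p and miR-378a-3p lay below the cutoff, while miR-99a-5p lay above it and was not called (edgeR, adjusted p = 0.0519). Their log2 fold changes were also smaller there, at 1.37, 1.39 and 1.17 respectively. With all 6 libraries the call on miR-150-5p remained at an adjusted p = 0.0492 and the other 5 were lost. In the fit of single miRs that call ended without TMM scaling (by the trimmed mean of M values), with scaling to the calibrators, with the low-count filter of edgeR (filterByExpr), with no cutoff, the Wald test of DESeq2 and a replicate block. In a serum EV sample, fewer EVs from a cell type and fewer copies of its miRs per EV cannot be told apart.

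**Figure D1:**
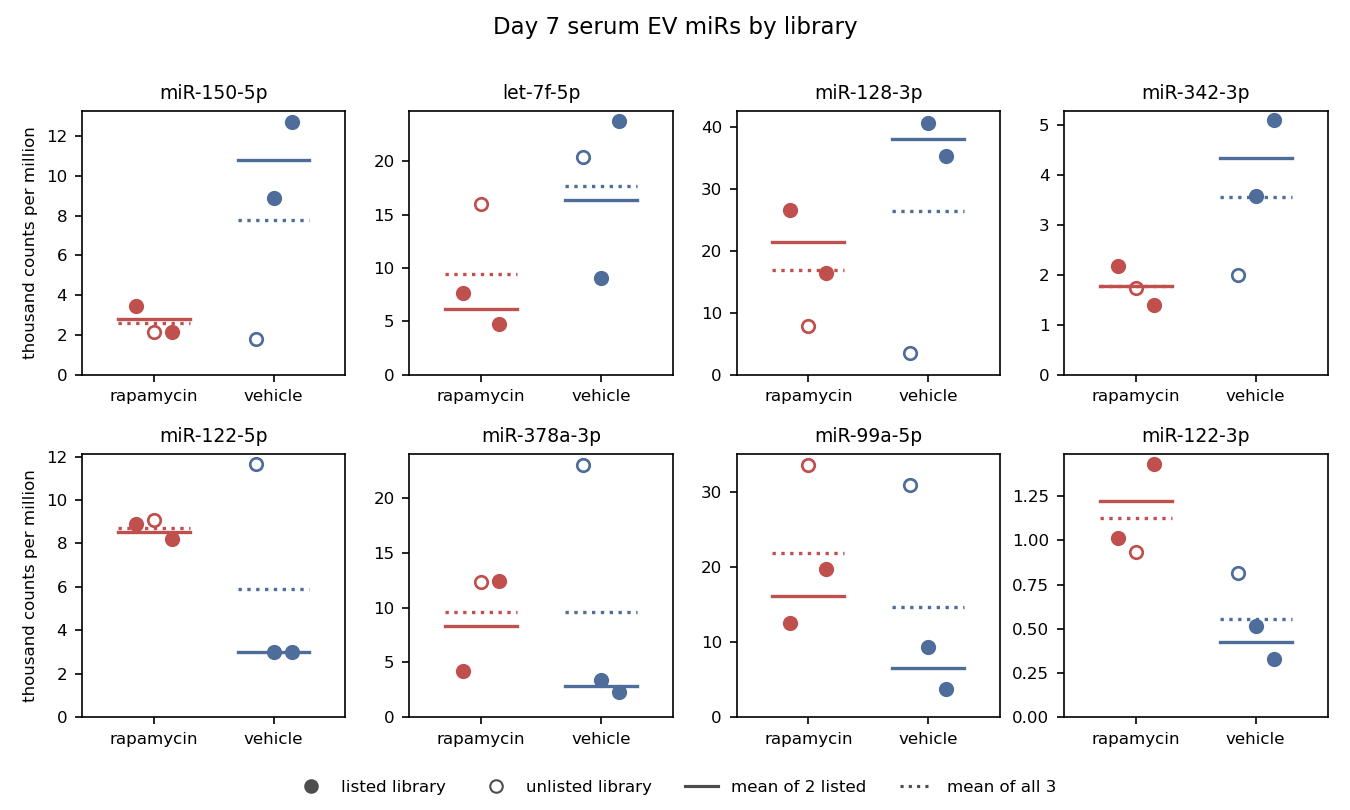
CPM divided by 1000 (linear axis from 0) of 8 miRs in each day 7 library, by treatment. Filled points are the 4 listed libraries, open points the 2 unlisted ones, and solid and dotted lines the group means of the listed and of all libraries. In the upper row the open vehicle point of miR-150-5p, at 1795 CPM, lies below every rapamycin point, and in the lower row the open vehicle points of miR-122-5p and miR-378a-3p lie above them.

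MiR-150-5p, a regulator of B and T cell maturation that is abundant in mature lymphocytes, stood at 3442 and 2147 CPM in the listed rapamycin libraries and at 8886 and 12726 CPM in the listed vehicle libraries. The unlisted rapamycin library had 2158 CPM and the unlisted vehicle library 1795 CPM. The groups therefore did not overlap in the listed libraries, and the unlisted vehicle library was lowest of all 6. Rapamycin over vehicle, its log2 fold change was -2.09 (standard error 0.47, adjusted p = 0.000233) in the listed libraries and -1.83 (standard error 0.52, adjusted p = 0.0492) with all 6. In the listed fit of single miRs the log2 fold change was -1.71 without rapamycin replicate 3 and -1.75 without vehicle replicate 3. Neither of these 2 fits called it. Among the seed features the same values were -1.84 and -1.82. With all 6 libraries the call on the single miR was lost without rapamycin replicate 2 (-1.66) or 3 (-1.73) and without vehicle replicate 2 (-1.74) or 3 (-1.17). Among the seed features it was kept without vehicle replicate 2 (-1.87, adjusted p = 0.0491).

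MiR-128-3p, abundant in brain and also present in blood cells, derives from a pair of hairpins, in R3hdm1 and in Arpp21. It stood at 26520 and 16372 CPM with rapamycin and at 40708 and 35317 CPM with vehicle in the listed libraries. Both unlisted libraries were lower than the 4 listed ones, at 7894 CPM with rapamycin and 3423 CPM with vehicle. The log2 fold change was -0.96 (standard error 0.34, adjusted p = 0.0457) in the listed libraries and -0.85 (standard error 0.47, adjusted p = 0.994) with all 6. With no abundance cutoff the listed adjusted p was 0.421, and the call was also lost with scaling to the calibrators. Of the 10 fits that each left out a listed library, 4 kept the call. It was lost without rapamycin replicate 3 (-0.58), vehicle replicate 2 (-0.81) or vehicle replicate 3 (-1.01) of day 7, and without rapamycin replicate 1 (-0.96), vehicle replicate 1 (-0.91) or vehicle replicate 2 (-0.91) of day 21.

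These calls, with that on let-7f-5p, were 3 of the 30 miRs above the abundance cutoff in the listed libraries, or 10%. With all 6 libraries 1 of 107 was called, or 0.935%. The cutoff was set in each fit where it gave most calls, so these shares depend on it. In both fits each called miR was lower with rapamycin. With the size factors of DESeq2 or with no TMM the listed libraries gave 5 calls, of which let-7f-5p and miR-150-5p were lower, miR-122-5p, miR-378a-3p and miR-99a-5p were higher, and miR-128-3p was no longer called. When the day 7 libraries were fitted without those of day 21, 16 of 47 were called in the listed libraries, or 34.0%, 9 higher and 7 lower, and 2 of 99 with all 6, or 2.02%. Beside the miRs named so far, these 16 included miR-142-3p, miR-191a-5p, miR-21-5p and miR-26a-5p, lower, and miR-30a-5p, miR-101a-3p, miR-24-3p, miR-23b-3p, miR-27b-3p and miR-29a-3p, higher. Of all miRs fitted, 14 of 365 and 8 of 426 had p under 0.05 before adjustment.

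MiR-342-3p, encoded in Evl and enriched in lymphocytes, was not called but had the same direction as miR-150-5p in both library sets. It stood at 2182 and 1387 CPM with rapamycin and at 3583 and 5098 CPM with vehicle in the listed libraries, with 1730 CPM in the unlisted rapamycin library and 2003 CPM in the unlisted vehicle library. The fit gave -1.42 on the log2 scale (standard error 0.54), below the abundance cutoff, and -1.21 (standard error 0.55, adjusted p = 0.758) with all 6. Here the unlisted vehicle library lay inside the range of the rapamycin libraries, so the groups overlapped. All 4 lymphocyte-enriched miRs of the marker list had a negative log2 fold change in both sets, with a median of -1.20 in the listed libraries and -1.11 with all 6, and miR-150-5p was the member called. The median over all miRs fitted was 0 in the listed libraries and -0.07 with all 6. MiR-181a-5p, the most abundant of the 4, belongs to a seed family whose summed log2 fold changes were smaller in size than the list medians. They were -0.10 (standard error 0.34) in the listed libraries and -0.16 (standard error 0.42) with all 6. The summed level of the list, most of it miR-181a-5p, ran from 20085 to 24952 CPM in the listed rapamycin libraries and from 32293 to 34014 CPM in the listed vehicle libraries, and was 30215 CPM in the unlisted rapamycin library and 26097 CPM in the unlisted vehicle library.

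The miR-142 hairpin, found in Tspoap1 and expressed across white blood cells, gave values for both arms. The 3p arm stood at 4886 and 4250 CPM with rapamycin and 7236 and 7706 CPM with vehicle in the listed libraries, while the unlisted rapamycin library had 1555 CPM and the unlisted vehicle library 1096 CPM. The 5p arm stood at 1506 and 1029 CPM against 1791 and 2510 CPM, while the unlisted rapamycin library had 447 CPM and the unlisted vehicle library 365 CPM. For both arms the 2 unlisted libraries were the lowest of the 6. The log2 fold changes were -0.85 (standard error 0.45) and -0.90 (standard error 0.61) in the listed libraries, both below the cutoff, and -0.78 and -0.85 with all 6, and neither arm was called. Of the 4 myeloid and pan-leukocyte miRs, 3 had a negative log2 fold change in each set, with medians of -0.63 and -0.56. Their summed level ran from 18072 to 18899 CPM with rapamycin and from 21474 to 26619 CPM with vehicle in the listed libraries, and was 7758 and 5322 CPM in the unlisted rapamycin and vehicle libraries.

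MiR-122-5p, a liver-enriched miR and a regulator of lipid metabolism, was 8881 and 8186 CPM in the listed rapamycin libraries and 3017 and 2997 CPM in the listed vehicle libraries. The unlisted rapamycin library had 9100 CPM and the unlisted vehicle library 11676 CPM. The 3 rapamycin libraries were close to each other, while the vehicle libraries held both the lowest and the highest value. Among the seed features its log2 fold change was 1.47 (standard error 0.51, adjusted p = 0.0486) in the listed libraries and 0.42 (standard error 0.51, adjusted p = 0.991) with all 6.

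The other arm of the same hairpin, miR-122-3p, stood at 1014 and 1431 CPM with rapamycin and at 519 and 331 CPM with vehicle in the listed libraries. The unlisted libraries had 933 CPM with rapamycin and 814 CPM with vehicle, so that all 3 rapamycin libraries lay above all 3 vehicle libraries. Its log2 fold change was 1.38 (standard error 0.90, below the cutoff) in the listed libraries and 0.95 (standard error 0.77, adjusted p = 0.994) with all 6, and it was not called. The counts behind it were 17 to 78 per library. The liver list had 4 of 4 members with a positive log2 fold change in the listed libraries (median 1.40) and 3 of 4 with all 6 (median 0.48), and none was called in the fit of single miRs. Its summed level was 14443 and 15343 CPM with rapamycin against 7095 and 8134 CPM with vehicle in the listed libraries, and 14777 and 18240 CPM in the unlisted rapamycin and vehicle libraries.

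MiR-378a-3p, encoded in Ppargc1b, a coactivator gene of mitochondrial metabolism, stood at 4210 and 12391 CPM with rapamycin and at 3418 and 2316 CPM with vehicle in the listed libraries. It was 12288 CPM in the unlisted rapamycin library and 22935 CPM in the unlisted vehicle library, the highest of the 6. Its log2 fold change among the seed features was 1.50 (standard error 0.51, adjusted p = 0.0486) in the listed libraries and -0.14 (standard error 0.49, adjusted p = 0.991) with all 6. MiR-99a-5p, a miR known to target mTOR, stood at 12568 and 19772 CPM against 9358 and 3794 CPM in the listed libraries, while 33618 and 31022 CPM were found in the unlisted rapamycin and vehicle libraries. Among the seed features it stood by itself, apart from miR-100-5p of the same family, and its log2 fold change was 1.27 (standard error 0.44, adjusted p = 0.0486) in the listed libraries and 0.43 (standard error 0.45, adjusted p = 0.991) with all 6.

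Summed by seed, 46 features stood above the cutoff in the listed libraries and 4 were called, or 8.70%. These were miR-122-5p, miR-378a-3p and miR-99a-5p, higher (6.52%), and miR-150-5p, lower (2.17%), and each entered as a single miR. No family with 2 or more measured members was called there, and of the 16 families described below the sum of 1 had p under 0.05 before adjustment. With no cutoff miR-150-5p was the single seed feature called in the listed libraries, and none was called with all 6. The Wald test of DESeq2 called 0 seed features in either library set. From the day 7 libraries alone, 14 of 74 were called in the listed libraries, or 18.9%, among them the sums of the let-7, miR-26 and miR-30 families, and 2 of 62 with all 6, or 3.23%. Of the 10 fits that each left out a listed library, miR-122-5p and miR-378a-3p were each called in 2 and miR-99a-5p in 3. For all 3, the fits without rapamycin replicate 2 or 3 of day 21 kept the call, and for miR-99a-5p also that without vehicle replicate 2 of day 7. Without rapamycin replicate 3 of day 7 the log2 fold changes of miR-378a-3p and miR-99a-5p were 0.38 and 0.77, and without vehicle replicate 3 they were 1.11 and 0.63. Over the 10 fits the log2 fold change of miR-122-5p ran from 1.10 to 1.37, so its value with every listed library, given above, lay above this whole range. For all 3, each fit without a day 21 library gave a smaller value than the fit with every listed library. Without rapamycin replicate 1 of day 21 the values of miR-122-5p, miR-378a-3p and miR-99a-5p were 1.25, 1.24 and 1.04. The day 7 counts are the same in these fits, and the cause of the shift was not tested. In the fit of single miRs the log2 fold change of miR-122-5p was 1.37 and it lay below the abundance cutoff.

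With all 6 libraries 170 seed features stood above the cutoff and 2 were called, or 1.18%, both lower with rapamycin. The calls were miR-150-5p (log2 fold change -1.83, adjusted p = 0.04997) and the miR-133a-3p family (log2 fold change -2.29, standard error 0.67, adjusted p = 0.04997), which consists of miR-133a-3p and miR-133b-3p, miRs of skeletal and cardiac muscle. The miR-133a-3p family held 38 and 7 counts in the listed rapamycin libraries and 5 and 6 in the listed vehicle libraries. The unlisted rapamycin library had 46 counts and the unlisted vehicle library 1052, or 10977 CPM against 117 to 1168 CPM in the other 5. Among listed libraries alone the sign was opposite, 2.59 (standard error 1.06), below the abundance cutoff. With all 6 but vehicle replicate 1 it was 2.41. The 7 muscle miRs of the marker list summed to 1062 counts in vehicle replicate 1 and to 6 to 53 counts in the other day 7 libraries, and what they contributed to other results of that library was not tested.

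Within the let-7 family, long known for restraining cell growth, 6 of the 9 measured members had at least 10 counts in every listed library. Of these, 5 had a negative and 1 a positive log2 fold change. The called member, let-7f-5p, stood at 7652 and 4697 CPM with rapamycin and at 9051 and 23740 CPM with vehicle in the listed libraries. The unlisted libraries had 16002 CPM with rapamycin and 20358 CPM with vehicle, so that the groups overlapped once they were added. Its log2 fold change was -1.56 (standard error 0.41, adjusted p = 0.0020) in the listed libraries and -1.10 (standard error 0.48, adjusted p = 0.758) with all 6. Without vehicle replicate 3 it was -0.63 and without rapamycin replicate 3 -1.16, and neither fit called it. With all 6 but rapamycin replicate 2 it was -1.66 and called.

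The members named let-7a-5p and miR-98-5p had rapamycin libraries below vehicle libraries in CPM over all 6. Of the 98 miRs compared in this way, 3 lay lower (3.06%) and 3 higher (3.06%) without overlap. After TMM scaling neither let-7a-5p nor miR-98-5p was free of overlap. Let-7a-5p stood at 307, 622 and 805 CPM with rapamycin and at 837, 908 and 919 CPM with vehicle, and its log2 fold changes were -0.81 (standard error 0.82) in the listed libraries and -0.78 (standard error 0.74) with all 6. MiR-98-5p, whose gene lies beside that of let-7f-2 in Huwe1, stood at 850, 1167 and 1352 CPM against 1419, 1887 and 2310 CPM, with log2 fold changes of -1.05 (standard error 0.58) and -0.90 (standard error 0.58). The nearest values of the groups were 805 and 837 CPM for let-7a-5p and 1352 and 1419 CPM for miR-98-5p. Their order lies within counting error, so the groups were not clearly apart for either miR. Neither was called. Let-7i-5p, with 695 to 2229 counts per library, overlapped between the groups and had log2 fold changes of -0.23 (standard error 0.34) and -0.18 (standard error 0.46). Let-7c-5p was the member with the opposite sign, at 6422 and 3713 CPM against 2499 and 4242 CPM in the listed libraries, with log2 fold changes of 0.45 (standard error 0.49) and 0.17 (standard error 0.52). Of the members with fewer counts, let-7d-5p had 0 counts in rapamycin replicate 3. Summed over its members, the family overlapped between the groups, and its log2 fold change was -0.38 (standard error 0.32, adjusted p = 0.608) in the listed libraries and -0.48 (standard error 0.40, adjusted p = 0.991) with all 6.

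**Figure D2:**
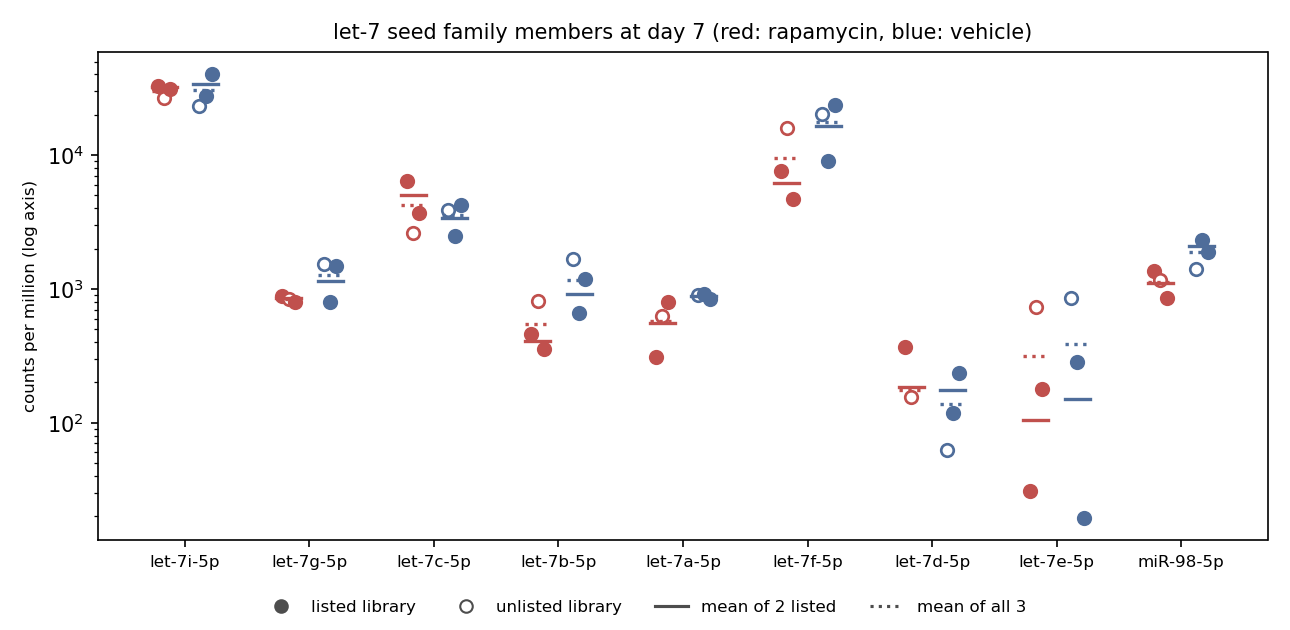
CPM on a log axis of the 9 measured let-7 family members in each day 7 library, rapamycin in red and vehicle in blue, with listed libraries filled, unlisted libraries open and group means as lines. A value of 0 (let-7d-5p in rapamycin replicate 3) cannot be drawn, and the open rapamycin point of let-7f-5p, at 16002 CPM, lies among the vehicle points. Let-7a-5p and miR-98-5p do not overlap between treatments on this scale, but the order of their nearest points lies within counting error.

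Altogether 16 seed families had 2 or more members with at least 10 counts in every listed library, with 40 such members. In the listed libraries 10 of the 16 sums lay higher with rapamycin without overlap in CPM (62.5%) and 1 lower (6.25%), where 38.4% of the 99 miRs with at least 10 counts lay higher and 21.2% lower without overlap. Over all 6 libraries none of the 16 was free of overlap. In 10 of the 16 every such member had a positive log2 fold change, in 3 every one had a negative one, and in 3 the members were mixed. Over all 6 libraries those numbers were 7, 1 and 8, and the sign of the sum differed between the library sets for 5 families.

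The miR-30 family, with miR-30a-5p, miR-30c-5p and miR-30e-5p, miRs linked to autophagy and to connective tissue growth factor, summed to 15027 and 24111 CPM with rapamycin and to 12021 and 8834 CPM with vehicle in the listed libraries. It summed to 40404 CPM in the unlisted rapamycin library and to 50702 CPM in the unlisted vehicle library, above all 4 listed ones. The sum leaves out miR-30b-5p and miR-30d-5p, members without a matched sequence. Its summed log2 fold change was 0.88 (standard error 0.39, adjusted p = 0.162) in the listed libraries and 0.00 (standard error 0.43, adjusted p = 0.991) with all 6. Its 3 members had log2 fold changes of 0.59 to 0.82 in the listed libraries and of -0.15 for miR-30e-5p to 0.47 for miR-30c-5p with all 6. The hairpins of miR-30e and of a copy of miR-30c lie together in Nfyc, and that of miR-30a lies apart from them.

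The miR-29 family, whose targets include collagen messenger RNAs, showed the same arrangement. Its sum was 21910 and 31939 CPM with rapamycin and 16052 and 16559 CPM with vehicle in the listed libraries, 38634 CPM in the unlisted rapamycin library and 66062 CPM in the unlisted vehicle library. On the log2 scale this gave 0.69 (standard error 0.37, adjusted p = 0.336) in the listed libraries and -0.25 (standard error 0.42, adjusted p = 0.991) with all 6. The miR-221/222 family, known for repressing the cell cycle inhibitor p27, summed to 5501 and 4429 CPM against 3866 and 1965 CPM, and to 7739 and 12918 CPM in the unlisted rapamycin and vehicle libraries. Its log2 fold changes were 0.74 (standard error 0.50, adjusted p = 0.458) and -0.22 (standard error 0.51, adjusted p = 0.991). For these 3 families the unlisted vehicle library held the highest value of the 6.

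By log2 fold change the miR-101 family (0.65, standard error 0.39) and the miR-27 family (0.62, standard error 0.40) completed the 5 highest listed sums. With all 6 libraries they stood at 0.17 and 0.27. The 5 lowest were the let-7 family, the miR-26 family (-0.32, standard error 0.31), the miR-92a family (-0.27, standard error 0.30), the miR-181 family (-0.10, standard error 0.34) and the miR-93 family (-0.01, standard error 0.36). Over all 6 libraries those of miR-26, miR-92a, miR-181 and miR-93 were -0.29, -0.27, -0.16 and -0.12. The miR-92a family, which includes members of the growth-promoting miR-17/92 cluster and its relatives, was the one without overlap on the lower side, at 73782 and 62984 CPM with rapamycin and 85777 and 74974 CPM with vehicle. Its unlisted libraries were lower still, at 46528 CPM with rapamycin and 29175 CPM with vehicle. None of these sums was called.

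**Figure D3:**
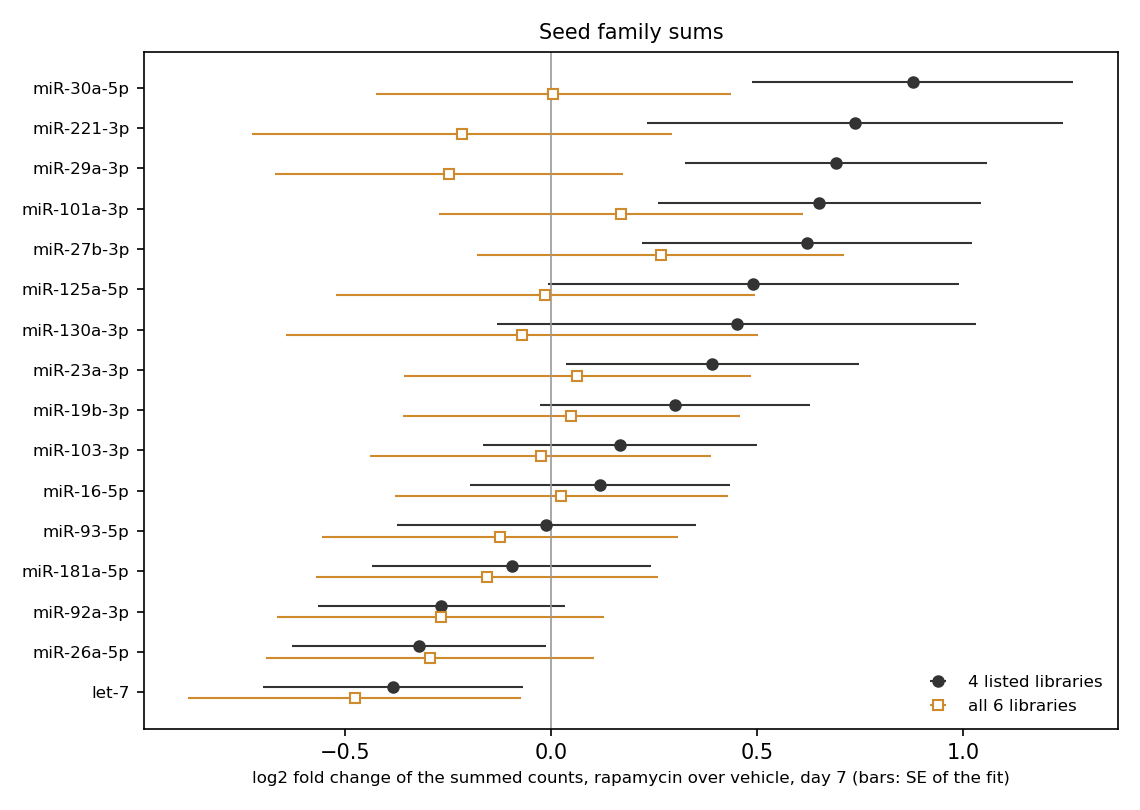
Log2 fold change of the summed counts of 16 seed families, rapamycin over vehicle at day 7, with bars for the standard error of the fit. Filled circles are the listed libraries and open squares all 6 libraries. The circles run from -0.38 for the let-7 family to 0.88 for the miR-30 family, and the squares of the miR-29 and miR-221/222 families lie on the other side of 0 from their circles.

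Summed by genomic cluster, 31 features stood above the cutoff in the listed libraries and 3 were called, or 9.68%, and with all 6 libraries 1 of 49 was called, or 2.04%. All were single miRs, let-7f-5p, miR-128-3p and miR-150-5p in the first and miR-150-5p in the second, and no cluster of 2 or more measured miRs was called in either. There were 9 clusters with 2 or more members of at least 10 counts in every listed library, and the sum of 0 of them had p under 0.05 before adjustment by edgeR, and 0 cluster features were called by the Wald test of DESeq2. From the day 7 libraries alone, 17 of 97 cluster features were called in the listed libraries, or 17.5%, among them the Mir191/Mir425 and Mir24-1/Mir27b/Mir23b clusters, and 0 of 275 with all 6 (8 at an unadjusted p under 0.05). Of the 9 clusters, 5 lay higher without overlap (55.6%) and 1 lower (11.1%) in the listed libraries, and none was free of overlap with all 6.

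The Mir191/Mir425 cluster, in Dalrd3, was the one on the lower side. It summed to 133612 and 136658 CPM with rapamycin and to 172096 and 157849 CPM with vehicle in the listed libraries, and to 79991 and 95290 CPM in the unlisted rapamycin and vehicle libraries. Its log2 fold change was -0.50 (standard error 0.31, adjusted p = 0.369) among listed libraries and -0.46 (standard error 0.44, adjusted p = 0.993) with all 6. Its 3 measurable members, miR-191a-5p, miR-425-5p and miR-425-3p, had negative log2 fold changes in both sets, from -0.56 to -0.33 in the listed libraries. The unlisted vehicle library lay below all 4 listed ones.

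The Mir24-1/Mir27b/Mir23b cluster, in Aopep, had the highest log2 fold change of the sum among these clusters. It stood at 19175 and 19906 CPM with rapamycin and at 14827 and 7063 CPM with vehicle in the listed libraries, while the unlisted rapamycin library had 38420 CPM and the unlisted vehicle library 33548 CPM. Rapamycin over vehicle, this was 0.64 on the log2 scale (standard error 0.41, adjusted p = 0.369) in the listed libraries and 0.37 (standard error 0.46, adjusted p = 0.993) with all 6. The related Mir24-2/Mir27a/Mir23a cluster, at another locus, gave 0.07 (standard error 0.38) and 0.01 (standard error 0.42). Members of the same seed therefore had values of different size by locus, miR-23b-3p 0.71 against miR-23a-3p 0.11 and miR-27b-3p 0.70 against miR-27a-3p 0.24 in the listed libraries, and the difference between the loci was not tested.

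The Mir144/Mir451a cluster of red blood cells stood at 60691 and 55245 CPM with rapamycin and at 41816 and 53531 CPM with vehicle in the listed libraries, and 0.07 on the log2 scale (standard error 0.34, adjusted p = 0.904). In the unlisted libraries it was lower, 31032 CPM with rapamycin and 12156 CPM with vehicle, and with all 6 the log2 fold change was 0.24 (standard error 0.45, adjusted p = 0.993). The 5 erythrocyte-enriched miRs summed to 107038 to 144398 CPM in the listed libraries against 76063 CPM in the unlisted rapamycin library and 33715 CPM in the unlisted vehicle library. The remaining clusters were Mir222/Mir221, Mir17/Mir18a/Mir19a/Mir20a/Mir92a1, Mir181c/Mir181d, Mir25/Mir93/Mir106b and Mir145/Mir143. They had log2 fold changes of -0.22 to 0.59 in the listed libraries and of -0.16 to 0.16 with all 6. The Mir17 sum (0.21 in the listed libraries) leaves out miR-17-5p, miR-19b-3p and miR-92a-3p. These had listed log2 fold changes of -0.43, 0.16 and -0.43 respectively.

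**Figure D4:**
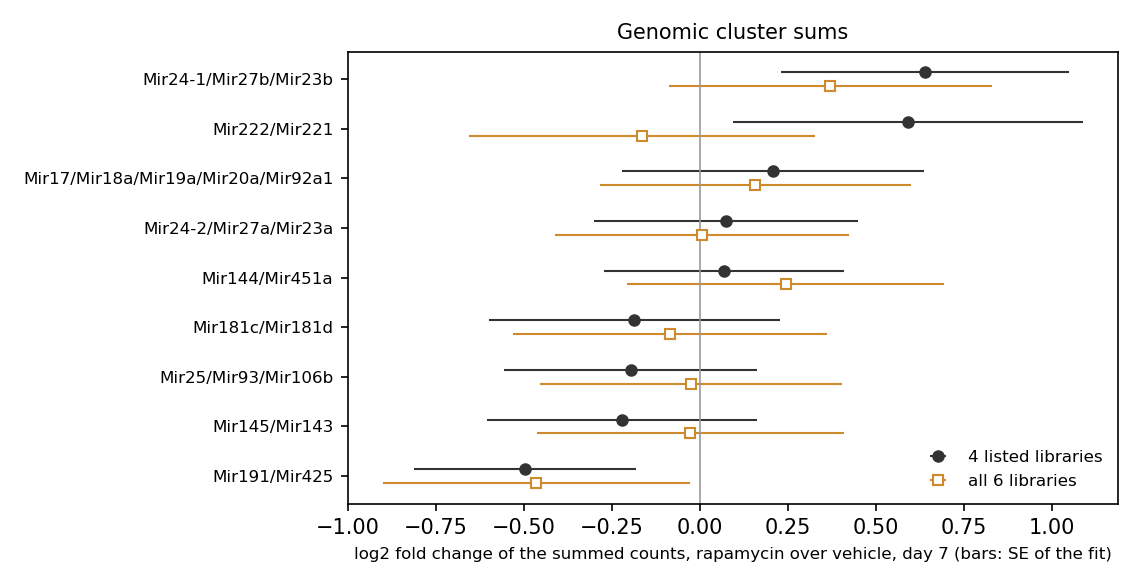
Log2 fold change of the summed counts of 9 genomic clusters, rapamycin over vehicle at day 7, with bars for the standard error of the fit. Filled circles are the listed libraries and open squares all 6 libraries. The Mir191/Mir425 cluster is the lowest in both, at -0.50 and -0.46, and the Mir222/Mir221 cluster changes side.

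For 98 miRs each of the 6 libraries held 10 or more counts, and 3 of these lay higher (3.06%) and 3 lower (3.06%) with rapamycin without overlap in CPM over all 6. Beside miR-122-3p, let-7a-5p and miR-98-5p these were miR-19a-3p, miR-203a-3p and miR-186-5p. MiR-203a-3p, an epithelial and skin miR, stood at 894, 2102 and 2274 CPM with rapamycin and 731, 739 and 877 CPM with vehicle, with log2 fold changes of 1.43 (standard error 0.66, below the cutoff) in the listed libraries and 1.08 (standard error 0.64, adjusted p = 0.994) with all 6. MiR-19a-3p, of the miR-17/92 cluster, stood at 5075, 5593 and 7515 CPM against 4384, 4514 and 4518 CPM, with log2 fold changes of 0.42 (standard error 0.45) and 0.31 (standard error 0.50). MiR-186-5p, encoded in Zranb2, stood at 2305, 2605 and 2952 CPM against 2953, 2970 and 3055 CPM. The nearest values of the groups, 2952 and 2953 CPM, were almost equal, so their order lies within counting error. Its log2 fold changes were -0.34 (standard error 0.53) and -0.34 (standard error 0.54). None of the 6 was called.

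The set without overlap depended on the scale. After TMM scaling, which lowered the levels of the unlisted libraries most, with factors of 1.26 and 1.25 against 0.87 to 1.05 in the listed ones, 1 miR was higher (1.02%) and 2 were lower (2.04%) over all 6 libraries. Of the 6 miRs named, miR-122-3p alone was free of overlap on both scales, and the lower ones were miR-181b-5p and miR-210-3p. In the listed libraries 26 of 99 were higher (26.3%) and 26 lower (26.3%) on that scale.

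The 2 unlisted libraries stood apart from the listed ones for many of the same miRs. Both lay above all 4 listed libraries for 31 of the 98 miRs and below all 4 for 30. Across these miRs their log2 CPM correlated with each other at r = 0.957, the unlisted vehicle library with the listed vehicle libraries at 0.777 and 0.700, and the unlisted rapamycin library with the listed rapamycin libraries at 0.896 and 0.900. These correlations are descriptions across miRs, which share their library and its depth. Of these 98 miRs, 38 lay higher (38.8%) and 21 lower (21.4%) with rapamycin without overlap in the listed libraries. For the 38, the unlisted vehicle library lay above both listed vehicle libraries for 28 and above both listed rapamycin libraries for 21. For the 21, it lay below both listed vehicle libraries for 16 and below both listed rapamycin libraries for 12. The unlisted rapamycin library did so for 28, 19, 16 and 9 respectively. What sets these libraries apart was not tested.

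**Figure D5:**
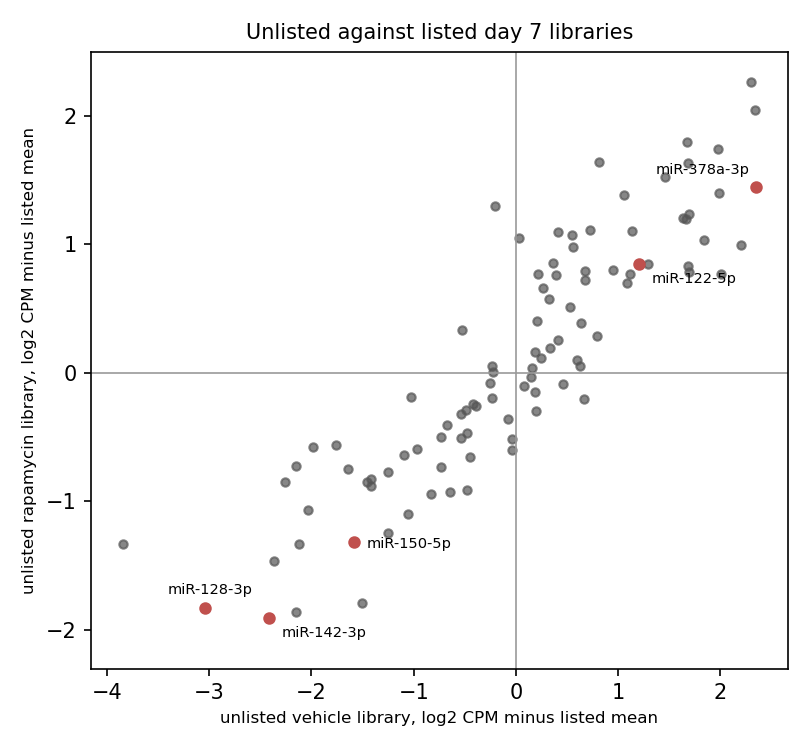
Log2 CPM of 98 miRs in the unlisted vehicle library (horizontal) and the unlisted rapamycin library (vertical), each minus the mean log2 CPM of the 4 listed day 7 libraries, with 5 named miRs in red. Both libraries deviated upward for 47 miRs, both downward for 41 and in opposite directions for 10.

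Of 9 hairpins with both arms at 10 counts or more in every listed library, 6 had the same sign of log2 fold change for both arms in the listed libraries. These were Mir122, Mir126b, Mir142, Mir181c, Mir24-2 and Mir425. With all 6 libraries Mir126b and Mir24-2 had arms of opposite sign, and Mir28 and Mir30a had arms of the same sign. The 3p arm counted for Mir24-2 is also made by Mir24-1. The arms of Mir122 had 1.37 (5p) and 1.38 (3p), and those of Mir30a differed most, with 0.82 for miR-30a-5p and -0.04 for miR-30a-3p in the listed libraries and 0.18 and 0.34 with all 6. Among the other marker lists, the 4 vascular miRs had a median log2 fold change of -0.20 in the listed libraries and 0.02 with all 6. The 7 epithelial miRs had 0.54 and 0.16, and the 5 fibroblast miRs 0.85 and -0.10. In the fibroblast list 3 members were higher and 2 lower in the listed libraries, and 0 and 5 with all 6. Its summed level was lower with rapamycin in the listed libraries, at 65638 and 80564 CPM against 84339 and 90697 CPM with vehicle. The unlisted rapamycin library had 54539 CPM and the unlisted vehicle library 45109 CPM. Of the 4 neural miRs 2 were in the table, with at most 5 counts in a library. No member of these lists was called in the fit of single miRs that included day 21. Among them miR-21-5p was called lower when the listed day 7 libraries were fitted alone.

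The ratio of miR counts to calibrator counts, a measure of the amount of miR in the RNA, was 1.26 ± 0.34 (SD, n = 2) with rapamycin and 1.58 ± 0.00068 (SD, n = 2) with vehicle in the listed libraries. The log2 difference was -0.35 (exact permutation test, two-sided, p = 0.333, the smallest p that 2 against 2 allows). With all 6 libraries it was -0.64 (exact permutation test, two-sided, p = 0.5, where 3 against 3 allows 0.1), and it turned to 0.37 without vehicle replicate 1. The design cannot reach p under 0.05 for this measure.

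Whether the treatment difference at day 7 differed from that at day 21 was tested on the seed features. It did for 3 of 79 above the cutoff in the listed libraries (2 higher, 2.53%, and 1 lower, 1.27%), or 3.80%, namely miR-150-5p (log2 difference -2.13, standard error 0.59, adjusted p = 0.0253), miR-378a-3p (2.16, standard error 0.65, adjusted p = 0.0399) and miR-122-5p (2.08, standard error 0.67, adjusted p = 0.0499). With all libraries it did for 1 of 355, or 0.282%, the miR-133a-3p family (-3.91, standard error 0.98, adjusted p = 0.0223), whose day 7 value rests on vehicle replicate 1. For miR-99a-5p the differences were 0.77 (standard error 0.56, adjusted p = 0.958) and -0.10 (standard error 0.64, adjusted p = 0.99975).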

How the data were processed

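Small RNA from serum EVs of 12 rats was sequenced, and the 6 day 7 libraries are described. The authors deposited raw read counts per mature miR, made in the miND pipeline with cutadapt 3.3, a minimum length of 17 bases, Bowtie 1.3.0 and miRDeep2, against rat genome mRatBN7.2 with 2 mismatches and miRBase with 1 mismatch. The 10 spike-in rows were left out of totals and tests. Counts were tested with edgeR 4.0.16 (R 4.3.3) by its quasi-likelihood F-test after TMM normalization, two-sided, with a mean for each treatment and day, so the day 21 libraries add to the estimate of spread. Features were single miRs, sums over miRs sharing bases 2 to 8, and sums over miRs whose precursors start within 10000 bases of a neighbour on the same strand. Sequences and positions came from RefSeq on GRCr8, another build than that of the files, and no coordinates are given. The 41 miRs without a match, among them miR-150-5p, miR-99a-5p, miR-30b-5p and miR-30d-5p, entered under their own names, so family and cluster sums can lack members. Adjusted p-values (Benjamini-Hochberg) cover the features above the abundance cutoff that gave most calls, and a call is an adjusted p under 0.05. Standard errors are the log2 fold change divided by the square root of F. The prior degrees of freedom were infinite in all of these fits but that of clusters with all libraries, so nearly all weight lay on a spread shared by all features. With filterByExpr, which drops features of few counts, they were finite, from 3.91 to 5.18, and no feature was called. Names were given to miRs called in either fit, to those of 10 or more counts free of overlap over all 6 libraries, to the families and clusters called or among the 5 highest or lowest, to miRs sharing a seed, cluster or hairpin with a call, and to members of the marker lists. Outside that rule miR-181b-5p, miR-210-3p, miR-30a-3p, miR-24-3p, miR-184 and the miRs called from the day 7 libraries alone were named after their values were seen. The members, lists and tests were chosen with earlier results of these data known. Alternatives were DESeq2 1.42.0 (size factors and Wald test), no TMM, calibrator scaling, filterByExpr, no cutoff, the day 7 libraries alone, a replicate block and leaving out each library. The scripts were tested on simulated data.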

Additional observations from a re-analysis of the deposited data

Results flagged for a closer look

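In the listed libraries the treatment difference of miR-150-5p at day 7 minus that at day 21 was -2.13 on the log2 scale by an interaction term, and this is why it is set out here. At day 21 miR-150-5p stood at 11270, 1451 and 4618 CPM with rapamycin and at 4233, 6133 and 4714 CPM with vehicle, so the groups overlapped. With all libraries the difference was -2.02 (standard error 0.71, adjusted p = 0.539) and was not called.

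The same term was 2.08 for miR-122-5p and 2.16 for miR-378a-3p in the listed libraries. At day 21 miR-122-5p stood at 367, 4222 and 0 CPM with rapamycin and at 1058, 174 and 5113 CPM with vehicle, a wide spread within each group. MiR-378a-3p stood at 1286, 3914 and 798 CPM against 1805, 1812 and 4994 CPM. With all libraries the differences were 1.00 (standard error 0.74, adjusted p = 0.99975) and 0.47 (standard error 0.71, adjusted p = 0.99975), and neither was called.

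With all libraries the term was -3.91 for the miR-133a-3p family. The rapamycin libraries of day 21 held 0, 45 and 1 of its counts and the vehicle libraries 2, 1 and 13, against 1052 in vehicle replicate 1 of day 7. In the listed libraries the difference was 1.03 (standard error 1.33), below the cutoff.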

How the results depend on the processing

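With listed libraries 3 miRs were called. Calibrator scaling and no cutoff each gave 2, let-7f-5p and miR-150-5p, both lower. RLE size factors of DESeq2 gave 5 (3 higher, 2 lower), no TMM 5 (3 higher, 2 lower), filterByExpr 0 (7 at an unadjusted p under 0.05), the Wald test of DESeq2 0 (7), and the day 7 libraries alone 16. With all libraries, where miR-150-5p was called, no TMM and calibrator scaling each called miR-133a-3p in its place, RLE gave 2, the day 7 libraries alone 2, filterByExpr 0 (2), no cutoff 0 (8) and the Wald test 0 (3). For seed features, 4 in the listed libraries became 1 (lower) with calibrator scaling, 1 with no cutoff, 0 with filterByExpr (6), 0 with the Wald test (5) and 14 with the day 7 libraries alone, and 2 with all libraries became 0 with no TMM (4), 1 with calibrator scaling, 0 with filterByExpr (2), 0 with no cutoff (6) and 0 with the Wald test (2). For clusters, 3 in the listed libraries became 5 with RLE and 5 with no TMM (3 higher and 2 lower in each), 0 with filterByExpr (8), 0 with the Wald test (7) and 17 with the day 7 libraries alone, and 1 with all libraries became 0 with RLE (7), no TMM (5), filterByExpr (2), no cutoff (8), the Wald test (2) and the day 7 libraries alone (8). For the difference between days, 3 in the listed libraries became 0 with calibrator scaling (9), filterByExpr (3), no cutoff (10) and the Wald test (6), and 1 with all libraries became 0 with filterByExpr (1) and the Wald test (2). With no cutoff more features enter the adjustment. For the other settings the cause was not tested.

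Leaving out each library in turn gave 0 to 7 miRs in either set, 0 to 7 seed features in the listed libraries and 0 to 6 in all, 0 to 8 clusters in either set, and 0 to 8 and 0 to 4 differences between days. The listed count of miRs was 0 without rapamycin or vehicle replicate 3 of day 7, and the count with all libraries was 7 without vehicle replicate 1. Where 1 library was left in a group, it was assumed to vary like the other groups. The miR to calibrator ratio ran from -0.63 to -0.07 in the listed libraries and from -1.35 to 0.37 in all. In all libraries the log2 fold change of the miR-133a-3p family ran from -2.72 to 2.41 and that of miR-378a-3p among seed features from -0.37 to 1.41. Sums in the listed libraries ran from 0.35 (without rapamycin replicate 3) to 0.98 for miR-30, from -1.07 (without rapamycin replicate 1) to -0.13 for miR-26 and from 0.20 (without vehicle replicate 3) to 1.18 for miR-221/222.

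Scaling all libraries to the calibrators moved the median log2 fold change of miRs to -1.12, and the sign turned for miR-122-3p (-0.51), miR-203a-3p (-0.35), miR-122-5p (-1.14) and miR-99a-5p (-0.89). The same scaling moved the listed median to -0.04.

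Replicate numbers were not taken to pair the samples, and the labels state no pairing. Same-numbered deviations from the group means correlated at -0.68, -0.55 and 0.33 across 98 miRs. These values cannot decide on pairing, since the unlisted libraries carry different numbers and their own deviations correlated at 0.74. With all libraries a replicate block within each day gave 0 miRs (2 at an unadjusted p under 0.05), 0 seed features (2), 0 clusters (1) and 0 differences between days (1), and put the miR-133a-3p family at 0.22. In the listed libraries, where it was added after seeing the data and rests at day 7 on replicate 3 alone, it gave 0 miRs (5), 0 seed features (4), 0 clusters (6) and 0 differences between days (7), with miR-150-5p at -2.74.

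Totals of 22355 to 95834 miR counts limit miRs of few counts, and 3 counts stood at up to 134 CPM.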

Other observations

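MiR-184, an epithelial and lens miR outside the naming rule and chosen after its values were seen, was called lower with rapamycin in the listed day 7 libraries for clusters and seed features when these were fitted alone. It stood at 645 and 134 CPM with rapamycin and at 566 and 2471 CPM with vehicle in the listed libraries, while the unlisted rapamycin library had 0 CPM and the unlisted vehicle library 73.0 CPM. Vehicle replicate 3, with 127 counts, held the highest value, and the others held 0 to 24 counts. The log2 fold change was -2.07 (standard error 0.88) in the listed libraries and -2.19 (standard error 0.84) with all 6, below the abundance cutoff of single miRs in both. Without vehicle replicate 3 of day 7 these were -0.58 and -0.35, and without rapamycin replicate 1 they were -3.59 and -4.42, the latter called.

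MiR-24-3p is made by hairpins in both the Mir23a and the Mir23b clusters, so its counts were added to neither cluster sum. It stood at 6607 and 11675 CPM with rapamycin and at 4384 and 5701 CPM with vehicle in the listed libraries, and the fit gave 0.71 on the log2 scale (standard error 0.44, adjusted p = 0.373). The unlisted libraries had 11297 CPM with rapamycin and 26609 CPM with vehicle, and with all 6 the log2 fold change was -0.29 (standard error 0.49, adjusted p = 0.994).

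The GC content of the mature sequence and the log2 fold change had a Spearman's rho of 0.07 in the listed libraries and -0.02 with all 6, across 88 miRs with a matched sequence, which are not independent replicates.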
